A study of Oryza sativa Japonica Group and Oryza sativa Indica Group with 16 samples.

Results

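The set described here holds the probe sets whose signal stayed near the well-watered level in the paddy rice ZS97 under slight drought stress and was upregulated from moderate drought stress onward. They were chosen by their ZS97 values on log2(intensity + 16), as the mean of the 2 arrays of a group. The change from the well-watered stage D0 had to lie within 0.4 at the slight stage D1 and above 1, a doubling on this scale, at both the moderate stage D2 and the severe stage D3. With control probe sets left out, 62 of the 57381 probe sets on the array met the rule. Read as a fall below −1 at D2 and D3 with the same bound at D1, the rule would take 34 other probe sets, which are not described here.

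The values came from 16 Affymetrix Rice Genome Arrays of flag leaves in the booting stage, 2 biological replicates for each of 8 groups. The genotypes were ZS97, a drought-sensitive indica paddy rice, and IRAT109, a drought-resistant japonica upland rice. All plants grew in PVC pipes, and the middle part of green, fully opened flag leaf blades was taken during the first cycle of drying and rewatering. Stages were defined in both genotypes by the relative water content of the leaf. Well-watered D0 leaves held 94% to 95%, slight stress (D1) was sampled at 83% to 88%, moderate stress (D2) between 74% and 78%, and severe stress (D3) between 65% and 69%. Each genotype is 1 line, so a difference between ZS97 and IRAT109 is one between these lines and not between paddy and upland rice in general.

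Drought acts on leaf gene expression partly through abscisic acid, which rises as the leaf loses water, and partly through other signals such as jasmonate. Jasmonate is read through JAZ proteins, which repress transcription factors until the hormone triggers their breakdown, and many JAZ genes are themselves induced by the hormone. Small heat shock proteins are chaperones that bind unfolding proteins, and their transcripts rise in heat and in several other stresses. Plant family 1 beta-glucosidases release active compounds, hormones among them, from stored glucosides.

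Few of the 62 probe sets carried a gene name in the annotation used. A single gene could be assigned to 46 of them, and these are 41 different genes, of which 5 are represented by 2 member probe sets. The other 16 probe sets had no single gene in the annotation used. A gene name beyond a locus number was at hand for 6 member probe sets (9.68%) of 5 genes, against 5.13% of all probe sets on the array. These 5 genes are JAZ10, HSP26.7, BGLU16, ABCG37 and EL2, and for the rest no role is given here. Probe sets that can hybridize to more than 1 transcript, marked by the letters x or s in their names, made up 8 and 8 of the 62.

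In ZS97, which fixed the membership, the median change of the members was 0.22 at D1, 1.28 at D2 and 1.60 at D3 on the log2 scale. The smallest change at D2 was 1.002 and the largest 2.57, and the largest at D3 was 4.74. On every one of the 62 probe sets both D2 arrays and both D3 arrays lay above all 4 arrays of D0 and D1. The 2 replicate arrays of a ZS97 group differed by a median of 0.097 and by at most 0.70. These values describe the selection and carry no test.

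The members were not strictly silent at D1. The D1 change was above 0 for 55 of them and above 0.3 for 18, while the lowest was −0.15. After D2 most kept their level, with 40 members within 0.4 of it at D3. A further step of over 0.4 was seen in 21 members, of which 6 rose by more than 1, and 1 member went back by more than 0.4. That member, LOC4333791, had the largest D2 change, at 2.57, and stood at 1.96 at D3.

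Levels at D0 ranged widely. The ZS97 D0 intensity had a median of 85.8, from 5.4 to 3234, and it was below 16 for 7 members. At such levels the added constant of 16 understates the fold. At D3 the median was 338 and the highest value 7101.

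The bounds cut through a continuum. Just inside the D1 bound lay EL2 at 0.40, LOC4327625 at 0.40 and LOC4334553 at 0.39, and just outside it LOC4328999, LOC4351818 and LOC4350068, each at 0.41. On the other side of zero the members nearest to the bound were LOC4334379 at −0.15 and probe sets without an assigned gene at −0.12 and −0.11, whereas another such probe set at −0.41, CH16 at −0.44 and the beta-glucosidase gene BGLU22 at −0.54 fell outside. At D2 the values of LOC4334553 and a probe set without an assigned gene, both 1.002, and of LOC4325401, 1.006, were inside, and LOC4342534 at 0.99, a probe set without an assigned gene at 0.98 and LOC4326136 at 0.98 were outside. At D3 LOC4327343 at 1.01, a LOC4349363 probe set at 1.04 and a BGLU16 probe set at 1.10 were inside, and a probe set without an assigned gene at 0.99, LOC4351119 at 0.98 and LOC4333770 at 0.98 outside.

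Among all probe sets above 1 at both D2 and D3 in ZS97, a delayed start was uncommon. There were 1863 of them, of which 1222 (65.6%) had already passed 1 at D1, 574 lay between 0.4 and 1, and 62 (3.33%) were the members. The remaining 5 were at or below −0.4 at D1. The same rule applied to IRAT109 took a single probe set, which has no assigned gene, with a change of 0.37 at D1 and 1.18 at D2 there and of 0.55 and 0.74 in ZS97, and none was shared between the genotypes. In IRAT109, 1405 probe sets were above 1 at both D2 and D3, and 1237 of them (88.0%) had passed 1 at D1.

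**Figure D1:**
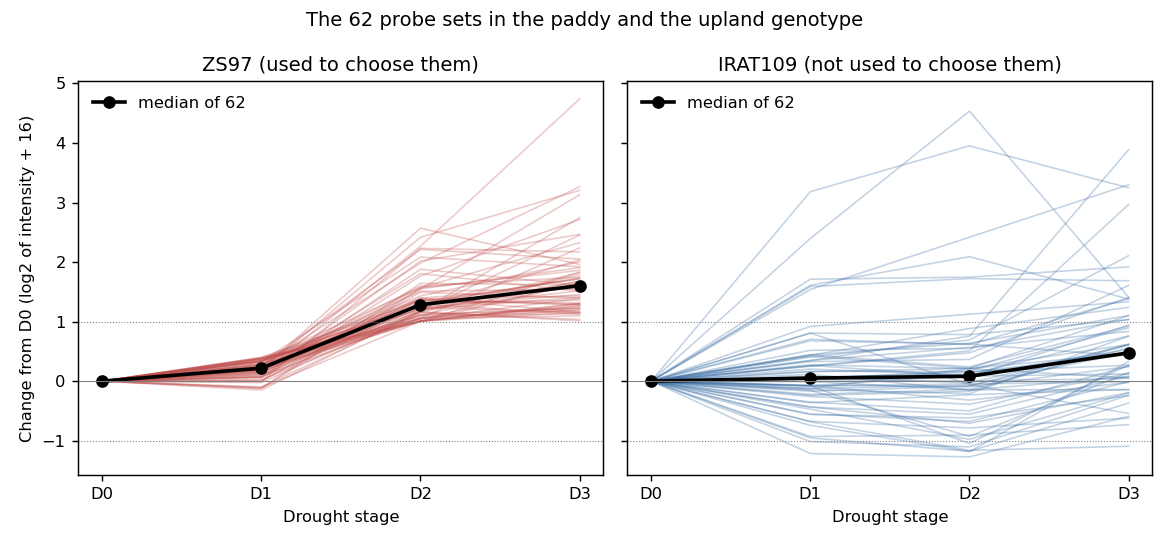
Change from D0 of the 62 members at each drought stage in ZS97 (left) and IRAT109 (right), in log2 of the intensity plus 16. Each thin line is 1 probe set (mean of 2 arrays), the black line is the median, and dotted lines mark 1 and −1. The ZS97 lines stay within 0.4 at D1 by selection, whereas the IRAT109 lines spread from −1.22 to 3.18 at D1 and their median reaches 0.48 at D3.

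The question put to IRAT109 was how the same probe sets behaved in the upland genotype. Its arrays took no part in the selection, so its changes were tested with limma across all 57381 probe sets, and a change was called at a Benjamini-Hochberg adjusted p below 0.05 together with a fold above 2. These p-values measure only the spread between replicate arrays, 2 a group, pooled over the 8 groups of both genotypes and moderated across probe sets. Because bulk leaf tissue was measured, fewer cells of a type and less RNA per cell cannot be told apart. A level set between the genotypes also depends on how well the probes match the sequence of each, which was not examined.

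In IRAT109 the members did not move as a group at D1 and D2. Their median change was 0.05 at D1, 0.08 at D2 and 0.48 at D3, beside −0.003, 0.02 and 0.02 for all probe sets. At D1, 6 members (9.68%) were called higher, against 2.87% of all probe sets, and 2 (3.23%) lower, against 3.38%. At D2, 7 members (11.3%) were higher, against 2.99%, and 6 (9.68%) lower, against 4.33%. At D3, 18 members (29.0%) were higher, against 3.42%, and 1 (1.61%) was lower, against 4.78%. Any rise at 1 or more stages was called for 18 members (29.0%), against 4.22% of all probe sets, and a fall at 1 or more stages for 6 (9.68%), against 5.40%. The other 38 members were called in neither direction at any stage.

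With no threshold on the fold, at an adjusted p below 0.05 in limma alone, 21 members (33.9%) were higher at D1, against 16% of all probe sets, and 16 (25.8%) lower, against 15.7%. At D2 the same counts of 21 and 16 stood against 17.3% higher and 17.3% lower. At D3, 38 members (61.3%) were higher, against 17.4%, and 8 (12.9%) lower, against 17.6%. The change stayed within 0.4 at all 3 stages for 11 members. The share of all probe sets that did so was not counted, so this count cannot be set against the array.

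Few members had in IRAT109 a step from D1 to D2 of the size seen in ZS97. The smallest such step of a member in ZS97 was 0.61, and 3 members (4.84%) exceeded it in IRAT109, namely HSP26.7 and probe sets of LOC4344438 and LOC9267997, against 0.113% of all probe sets. With the 2-fold threshold, 1 member (HSP26.7) rose from D1 to D2, against 0.0192% of all probe sets. From D2 to D3, 7 members (11.3%) rose, against 0.467% of all probe sets, and 1 (1.61%) fell, against 0.160%. The sign of the D3 change was positive for 47 members and negative for 15. The share of all probe sets with a positive D3 change was not counted.

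The IRAT109 response of probe sets raised in ZS97 differed with the ZS97 change at D1. Of the 1222 probe sets that had passed 1 at D1 in ZS97, 65.6%, 64.3% and 71.6% were called higher in IRAT109 at D1, D2 and D3, with median changes of 1.31, 1.30 and 1.54. Of the 574 between 0.4 and 1, the shares were 24.9%, 27.9% and 45.3%, and the median changes 0.66, 0.67 and 0.93. The members were lowest at each stage. The difference between these sets was not tested, since the probe sets are not replicates, and the D0 arrays of IRAT109 are shared by all of these comparisons.

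**Figure D2:**
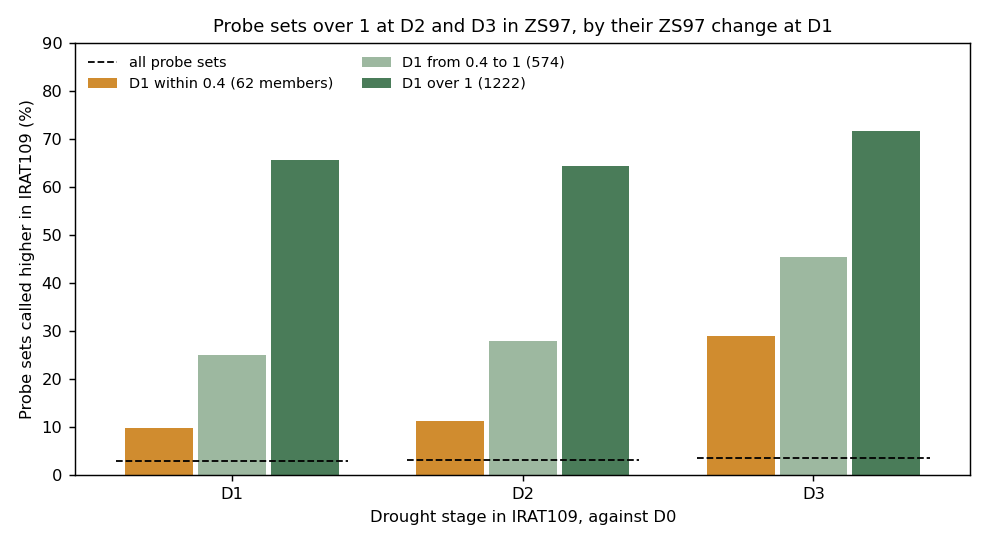
Share of probe sets called higher in IRAT109 at each stage (limma, adjusted p below 0.05 and over 2-fold), in percent, for probe sets raised at D2 and D3 in ZS97 and grouped by their ZS97 change at D1. Dashed lines give the share of all 57381 probe sets. The bars of the 62 members stand at 9.68%, 11.3% and 29.0%, above the dashed lines and below both other groups at each stage.

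Most members changed more in ZS97 than in IRAT109. At D2, 55 members had the larger change in ZS97, and at D3 56 did, which the selection favours. Both IRAT109 arrays lay below both D0 arrays of IRAT109 for 21 members (33.9%) at D2 and 11 (17.7%) at D3. Of all probe sets this held for 28.2% and 27.3%, and of those with both ZS97 arrays above D0 at the same stage for 15.8% and 13.2%. The genotypes were closer at D0, where 53 members differed by less than 1 on the log2 scale, 5 were higher in IRAT109 by at least 1 and 4 were lower.

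**Figure D3:**
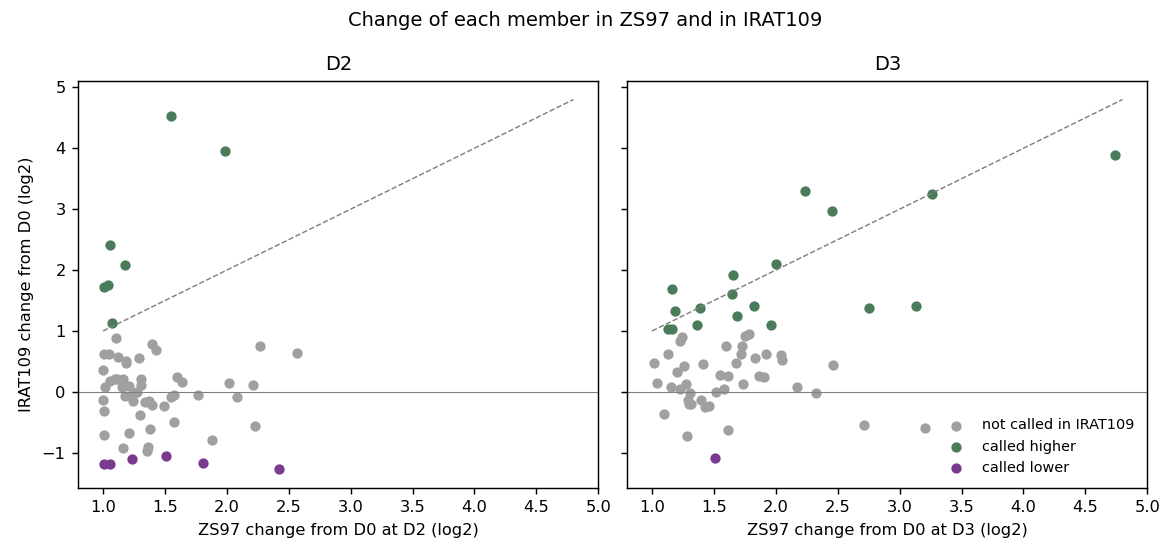
Change from D0 in IRAT109 against the change in ZS97 for each of the 62 members at D2 (left) and D3 (right), both in log2. The dashed line marks equal change, green points were called higher in IRAT109, purple points lower and grey points neither. At D2, 29 of the 62 points lie within 0.4 of 0 in IRAT109, with 7 green and 6 purple, and at D3 18 are green and 1 is purple. The share of all probe sets within 0.4 was not counted.

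Among the named members, HSP26.7, which encodes a chloroplast small heat shock protein, peaked at different stages in the 2 genotypes. In ZS97 its intensity was 30.4 and 26.1 at D0, 28.4 and 31.3 at D1, 125 and 102 at D2 and 374 and 367 at D3. In IRAT109 it was 14.2 and 17.1 at D0, 158 and 144 at D1, 718 and 716 at D2, and 60.4 and 76.3 at D3. The IRAT109 signal thus peaked at D2 and had dropped at D3, a stage at which ZS97 was highest, and in IRAT109 no array of a drought stage overlapped with D0.

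The IRAT109 changes of HSP26.7 from D1 to D3 were 2.40, 4.53 and 1.41, each ± 0.10 (SE), and their limma adjusted p was 8.68e-10, 2.25e-12 and 1.02e-07. From D2 to D3 the signal fell by 3.13 (adjusted p = 5.53e-09). With a constant of 64 in place of 16 the D3 change was 0.73 and no longer called, since its D0 level is low.

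Several other small heat shock genes passed 1 at D2 and D3 in ZS97 as well. Of 26 probe sets for small heat shock proteins, 3 were above 1 at D1 in ZS97 and 10 at both D2 and D3, HSP26.7 included. In IRAT109, 8, 9 and 9 of the 26 were called higher and 3, 2 and 3 lower at D1, D2 and D3. HSP23.2, for example, changed by 0.51, 1.55 and 2.94 in ZS97 and by 1.58, 2.36 and 2.42 in IRAT109, and 1 probe set of HSP18.6 by 0.71, 1.95 and 2.84 and by 1.39, 2.39 and 3.29. Both lay outside the D1 bound in ZS97.

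JAZ10, a JAZ repressor of the jasmonate response, was upregulated in ZS97 at the 2 later stages and had a different course in IRAT109. The ZS97 intensities were 111 and 110 at D0, 132 and 103 at D1, 438 and 391 at D2, and 805 and 822 at D3. Those of IRAT109 were 160 and 191 at D0, 353 and 287 at D1, 169 and 167 at D2, and 98.4 and 134 at D3. The IRAT109 arrays were thus highest at D1 and lowest at D3, and the D2 arrays lay within the D0 range.

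In IRAT109 the JAZ10 changes were 0.81 ± 0.14 at D1, −0.06 ± 0.14 at D2 and −0.54 ± 0.14 at D3 (limma adjusted p = 0.000427, 0.829 and 0.00716), none of them beyond the 2-fold threshold. The D3 change was −0.345 without IRAT109 D3 replicate 1. The second JAZ10 probe set on the array was not a member, with ZS97 changes of −0.01, 0.60 and 1.09 and IRAT109 changes of 0.21, −0.10 and −0.01. Its changes were smaller in ZS97 than those of the member probe set. In IRAT109 it had neither the D1 rise nor the D3 fall (limma adjusted p = 0.128 and 0.947). The member probe set is marked s, so it can hybridize to more than 1 transcript, and the second is marked neither x nor s.

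JAZ10 is the only named member in the jasmonate list, and members without a gene name could not be assigned to it. In the list of jasmonate synthesis and JAZ genes, 41 probe sets of 36 genes, 2, 1 and 1 were called higher and 5, 9 and 9 lower in IRAT109 at D1, D2 and D3. In ZS97, 4 of the 41 were above 1 at D2. The list also took probe sets of genes named GATA17, GATA18 and GATA20, and that of GATA18 was among those called lower at D2 and D3. The JAZ genes on their own gave 15 probe sets, and the 4 above 1 at D2 and D3 in ZS97 were JAZ10, JAZ11, JAZ12 and JAZ13. JAZ11, the gene next to JAZ10 on chromosome 3 of the RefSeq assembly ASM3414082v1, changed by −0.87, 1.14 and 1.59 in ZS97, outside the D1 bound, and by −0.34, −0.72 and 0.22 in IRAT109. JAZ9, which follows it, changed by −0.27, −0.29 and −0.04 in ZS97. JAZ13 changed by 1.42, 2.30 and 2.96 in ZS97, outside the D1 bound. Like the JAZ10 member probe set it was highest at D1 in IRAT109, at 1.10, 0.05 and −0.30, with only the D1 rise called. JAZ12 was called higher at all 3 stages in IRAT109.

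BGLU16, a family 1 beta-glucosidase gene, was represented by 2 member probe sets that gave the same course. The first of them read 670 and 637 at D0 in ZS97, 726 and 769 at D1, 1550 and 1571 at D2, and 1783 and 1859 at D3. In IRAT109 it read 683 and 655 at D0, 338 and 309 at D1, 302 and 304 at D2, and 558 and 573 at D3. The D0 levels of the genotypes overlapped, and from there ZS97 rose while all 6 drought arrays of IRAT109 lay below its D0 arrays.

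The IRAT109 changes of this probe set were −1.01 ± 0.06 at D1 and −1.10 ± 0.06 at D2, both called (limma adjusted p = 1.73e-08 and 6.21e-09), and −0.24 ± 0.06 at D3 (adjusted p = 0.00563). The other BGLU16 probe set gave −0.95 ± 0.07, −1.18 ± 0.07 and −0.37 ± 0.07, and was called lower at D2 (adjusted p = 1.34e-08). The D1 call is close to the threshold and was lost for the first probe set when IRAT109 D0 replicate 1 (−0.98) or D1 replicate 2 (−0.95) was left out.

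The beta-glucosidase genes as a family moved in both directions. Of 39 BGLU probe sets of 27 genes, 7, 6 and 9 were called higher and 5, 5 and 3 lower in IRAT109 at D1, D2 and D3. In ZS97, 10 of the 39 were above 1 at both D2 and D3. BGLU18, the gene next to BGLU16 among the annotated genes, changed by 0.844, 1.145 and 1.9996 in ZS97 and by 1.37, 1.46 and 1.80 in IRAT109. BGLU22, just outside the D1 bound, changed by −0.54, 1.64 and 1.62 in ZS97 and by −1.06, −0.79 and 0.35 in IRAT109, so that like BGLU16 it was higher at D2 in ZS97 and lower at D1 in IRAT109, where limma called the D1 change.

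ABCG37, a transporter of the pleiotropic drug resistance type of ABC proteins, was higher under drought in ZS97 and lower in IRAT109, where the change was small. Its ZS97 intensities were 140 and 141 at D0, 147 and 166 at D1, 397 and 386 at D2, and 397 and 415 at D3. In IRAT109 they were 113 and 113 at D0, 74.9 and 68.3 at D1, 69.7 and 66.5 at D2, and 91.8 and 94.6 at D3. All IRAT109 drought arrays were below D0. This probe set is marked s, so it can hybridize to more than 1 transcript.

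For ABCG37 the IRAT109 changes were −0.56 ± 0.06, −0.62 ± 0.06 and −0.24 ± 0.06, with limma adjusted p of 9.15e-06, 3.11e-06 and 0.00763, none of them 2-fold. Of 13 probe sets for ABC transporters of the G subfamily, ABCG37 was the only one above 1 at D2 in ZS97. In IRAT109, 0, 0 and 2 of the 13 were called higher and 1, 1 and 1 lower at D1, D2 and D3. ABCG36, located near ABCG37, changed by 0.18, 0.18 and 0.54 in ZS97 and reached 1.05 at D3 in IRAT109 on 1 probe set.

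EL2, a cyclin-dependent kinase inhibitor related to SIAMESE of Arabidopsis, lay at the edge of the D1 bound. It read 406 and 401 at D0 in ZS97, 591 and 488 at D1, 1108 and 1002 at D2, and 1000 and 1052 at D3. In IRAT109 it read 929 and 1008 at D0, 685 and 704 at D1, 495 and 472 at D2, and 835 and 846 at D3. It was thus higher in IRAT109 at D0 and lower at D2 than in ZS97, with no overlap of the arrays at either stage.

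The IRAT109 changes of EL2 were −0.47 ± 0.08 at D1, −0.98 ± 0.08 at D2 and −0.20 ± 0.08 at D3 (limma adjusted p = 0.000488, 5.51e-07 and 0.0803), so that the D2 fall stayed just short of 2-fold. It passed 2-fold and was called without IRAT109 D0 replicate 1 (−1.04) or D2 replicate 1 (−1.01). The second EL2 probe set changed by 0.22, 0.90 and 0.96 in ZS97 and by −0.41, −0.81 and −0.18 in IRAT109.

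**Figure D4:**
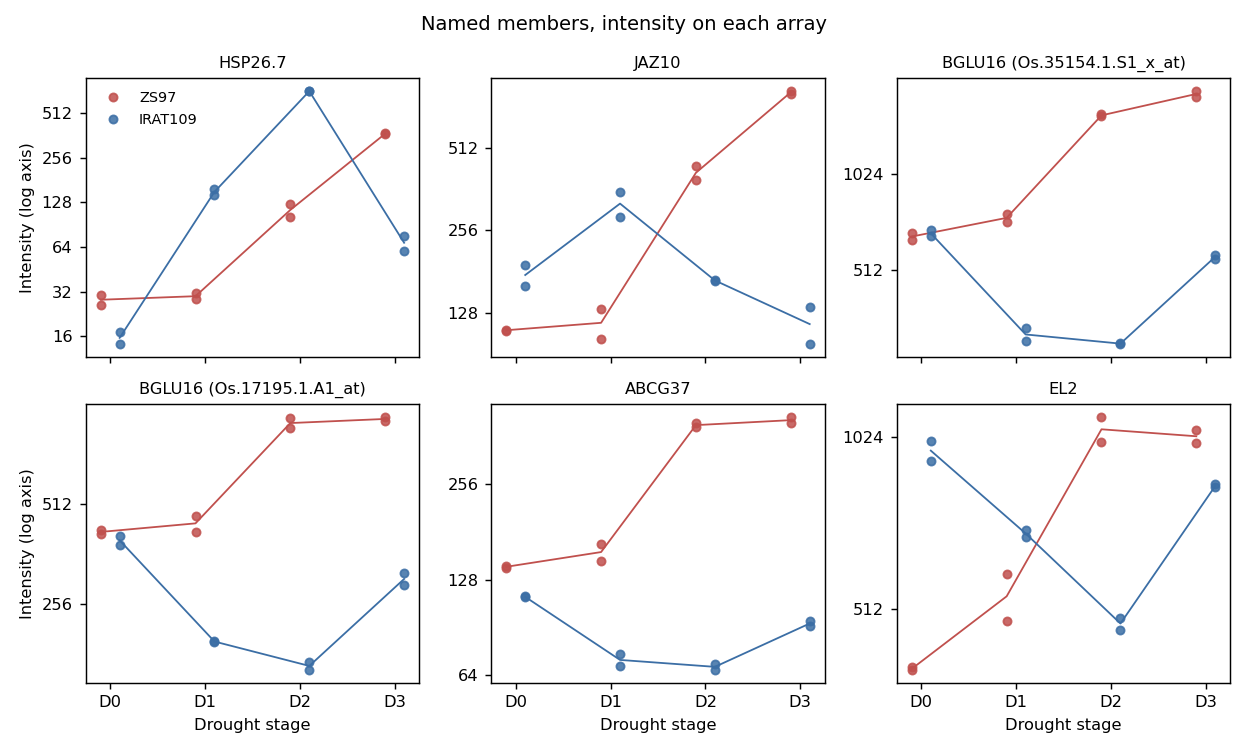
Intensity of the 6 named member probe sets on each of the 16 arrays, on a log axis that differs between panels, with lines through the means of 2 arrays. ZS97 (red) rises from D1 to D2 in every panel by selection, while IRAT109 (blue) peaks at D2 for HSP26.7 and at D1 for JAZ10 and is lowest at D2 for BGLU16, ABCG37 and EL2.

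The remaining members carry only locus numbers, and those singled out below were chosen after their values were seen. They illustrate the 4 courses met in IRAT109. The share of all probe sets was not counted for rises at D3 alone or at every stage. In the first course, 11 members were called higher in IRAT109 at D3 alone, so that the 2-fold threshold was passed 1 stage later than in ZS97. Passing it at D3 does not mark a start at D3. Below 2-fold, LOC4325404 had risen by 0.81 and LOC4341688 by 0.70 at D1 in IRAT109 (limma adjusted p = 4.78e-05 and 0.000546). LOC4328924 stood at 0.26 there (adjusted p = 0.127). With a constant of 1, LOC4331521 (1.36) and LOC4346725 (1.35) were called at D2 already, and with a constant of 64 only 7 members were called at D3 alone. The largest was LOC4331521, which also had the largest ZS97 change at D3. Its ZS97 intensities were 21.2 and 21.5 at D0, 22.4 and 28.0 at D1, 168 and 159 at D2, and 971 and 992 at D3. In IRAT109 they were 8.7 and 13.5 at D0, 17.3 and 19.4 at D1, 27.0 and 32.3 at D2, and 351 and 417 at D3. The IRAT109 change was 0.35 ± 0.10 at D1, 0.76 ± 0.10 at D2 and 3.89 ± 0.10 at D3 (limma adjusted p = 0.0175, 4.51e-05 and 6.37e-12). The step from D2 to D3 was 3.13 ± 0.10.

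LOC4328924 behaved alike, at 23.9 and 24, 25 and 28.8, 75.2 and 74.0, and 204 and 202 from D0 to D3 in ZS97. The IRAT109 arrays gave 18.9 and 23.3, 23.4 and 33.6, 32.0 and 41.8, and 251 and 299. The D1 arrays of IRAT109 lay just above D0 (limma adjusted p = 0.127), and its D3 arrays exceeded those of ZS97. The IRAT109 change was 0.51 ± 0.12 at D2 and 2.97 ± 0.12 at D3 (limma adjusted p = 0.00358 and 2.99e-10).

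LOC4346725 and LOC4334553 were also called at D3 alone. Their IRAT109 changes from D0 to D3 were 2.11 ± 0.14 and 1.61 ± 0.06, after 0.69 and 0.37 at D2. LOC4334553 was the brightest of these, at 2013 and 2076 at D0, 2704 and 2573 at D2 and 6169 and 6359 at D3 in IRAT109. The other 7 members called at D3 alone had IRAT109 D3 changes from 1.03 to 1.41.

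In the second course, 6 members were called higher at all 3 stages in IRAT109 and 1 more, LOC9266295, at D2 and D3. The 6 were thus upregulated in IRAT109 at a stage at which the selection rule kept ZS97 within 0.4 of D0. LOC4336456 and LOC4350213 were close to that bound, each at 0.38 at D1 in ZS97. Besides HSP26.7 the 6 included both member probe sets of LOC9267997, the first of them marked s. On the first of these the ZS97 intensities were 9.2 and 7.6 at D0, 10.9 and 15.6 at D1, 79.8 and 81.0 at D2, and 234 and 204 at D3. The IRAT109 intensities were 6.6 and 5.6 at D0, 183 and 186 at D1, 325 and 327 at D2, and 194 at D3 on both arrays. The IRAT109 changes were 3.18 ± 0.08, 3.95 ± 0.08 and 3.25 ± 0.08, the largest D1 change of all members (limma adjusted p = 6.8e-12 at D1).

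The second LOC9267997 member probe set gave 1.61, 2.09 and 1.38 in IRAT109, and another outside the members gave 0.81, 1.14 and 0.89 with ZS97 changes of −0.06, 0.29 and 0.75. A further probe set of this gene, also outside the members, gave 0.11, 0.17 and 0.08 in IRAT109 and −0.01, 0.01 and 0.04 in ZS97. The probe sets of LOC9267997 therefore differed. With a constant of 64 the second member probe set was not called at any stage (0.703, 0.997 and 0.576). That constant also ended the D1 call of LOC4344438 (0.797) and left 3 members called higher at all 3 stages. With 16, LOC4344438 changed by 1.54, 2.42 and 3.30 in IRAT109 and by 0.22, 1.06 and 2.24 in ZS97. Its other probe set rose by 2.80 already at D1 in ZS97 and by 4.72 and 6.13 later, so that the late start in ZS97 belongs to 1 of its 2 probe sets.

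LOC4336456 and LOC4350213 were both brighter in IRAT109 at D0. LOC4336456 read 154 and 175 at D0 in IRAT109 and 32.9 and 24.9 in ZS97, and its IRAT109 changes were 1.71, 1.75 and 1.92, each ± 0.11. The member probe set of LOC4350213 read 2456 and 2248 at D0 in IRAT109 and 14.7 and 12.2 in ZS97, a difference of 6.33 on the log2 scale and the largest among the members. It rose in IRAT109 to 7067 and 7131 at D1 and stayed at that level, at 7696 and 7891 at D2 and 7758 and 7433 at D3. In ZS97 it reached only 55.8 and 32.8 at D2 and 48.0 and 51.3 at D3, so that its membership rests on a change at the lower end of the intensity range. The other LOC4350213 probe set, outside the members, changed by 0.43, 0.42 and 0.65 in ZS97 and by 2.25, 2.65 and 2.41 in IRAT109.

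In the third course, 6 members were called lower in IRAT109 at 1 or more stages, which included both BGLU16 probe sets. All 6 were called at D2, by limma with the constant of 16. With a constant of 64, 0 of the 6 passed the 2-fold threshold at D2, with changes from −0.553 to −0.9993, and rank products called 4 of them. A probe set with no gene assigned had the lowest IRAT109 changes at D1 and D2. It read 148 and 146 at D0, 157 and 183 at D1, 923 and 793 at D2 and 1516 and 1462 at D3 in ZS97. In IRAT109 it read 184 and 195 at D0, 68.2 and 76.9 at D1, 59.9 and 79.3 at D2 and 111 and 130 at D3. The IRAT109 changes were −1.22 ± 0.11, −1.27 ± 0.11 and −0.59 ± 0.11 (limma adjusted p = 1.83e-06, 1.01e-06 and 0.000944), while ZS97 had risen by 2.42 at D2 and 3.20 at D3.

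LOC9266317 was the only member called lower at D3 in IRAT109, at −0.68 ± 0.10, −1.16 ± 0.10 and −1.09 ± 0.10 (limma adjusted p = 0.000106, 6.43e-07 and 1.08e-06). Its IRAT109 arrays went from 48.6 and 49.9 at D0 to 10.9 and 15.6 at D2 and 17.2 and 12.2 at D3. Its D3 change was −0.97 without IRAT109 D3 replicate 2, which ended that call.

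LOC4325401 fell in IRAT109 at D2 and was back near D0 at D3. It read 71.2 and 76.1 at D0 in IRAT109, 46.2 and 30.2 at D1, 23.8 and 23.1 at D2 and 90.9 and 103 at D3. Its change was −1.18 ± 0.12 at D2 and 0.33 ± 0.12 at D3, and the step between them 1.52 ± 0.12 (limma adjusted p = 3.58e-06). It lies 2 genes from LOC4325404, another member, on chromosome 1 of the same assembly. LOC4325404 changed by 0.81, 0.78 and 1.03 in IRAT109 and was called higher at D3, so that the neighbours differed in sign at D1 and D2 and were both above D0 at D3. That call was lost without IRAT109 D0 replicate 1 (0.94) or D3 replicate 2 (0.98).

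For LOC4349363 the probe sets disagreed. Its 2 member probe sets were higher by 1.51 and 1.16 at D2 in ZS97 and changed by −1.05 and −0.93 at D2 in IRAT109. Of 3 others assigned to the same gene, 2 were at −1.70 and −2.05 at D2 in ZS97 and the third at 0.21. In IRAT109 these 3 changed by −0.94, −1.70 and −0.02 at D2 and by −0.77, −1.01 and 0.04 at D3. A direction for this gene cannot be given from these probe sets. The D2 call of the first member probe set in IRAT109 was also lost without IRAT109 D0 replicate 1 (−0.976) or D2 replicate 2 (−0.998).

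In the fourth and most common course, IRAT109 was called in neither direction at any stage, which held for 38 members. Of these, 29 had an adjusted p below 0.05 in limma at 1 or more stages without reaching 2-fold. The share of all probe sets that did so was not counted. Of all probe sets, 4.22% were called higher and 5.40% lower at 1 or more stages, so most of the array followed this course too. LOC4339736 is an example with low signal in both genotypes at D0. Its ZS97 arrays read 9.9 and 10.8 at D0, 17.0 and 10.7 at D1, 59.5 and 65.3 at D2 and 124 and 108 at D3, whereas all 8 IRAT109 arrays lay between 9.7 and 13.5. The IRAT109 changes were −0.08 ± 0.10, −0.05 ± 0.10 and −0.01 ± 0.10 (limma adjusted p = 0.631, 0.795 and 0.952). A probe set with no gene assigned went from 10.8 and 13.3 at D0 to 134 and 143 at D3 in ZS97 and from 12.4 and 12 to 23.5 and 21.5 in IRAT109, a change of 0.45 ± 0.07 (adjusted p = 9.13e-05).

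**Figure D5:**
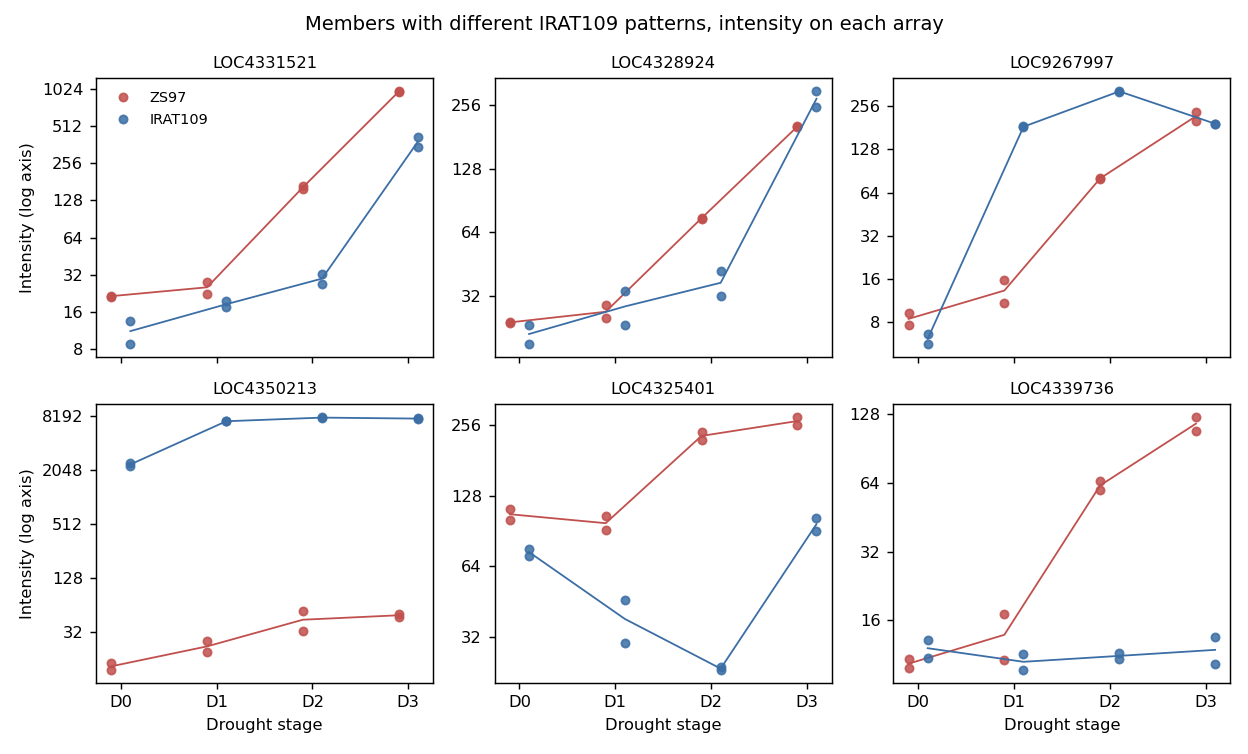
Intensity on each of the 16 arrays for 6 members with locus numbers, chosen after their values were seen, on a log axis that differs between panels, with lines through the means of 2 arrays (ZS97 red, IRAT109 blue). In IRAT109, LOC4331521 and LOC4328924 pass 2-fold at D3 after smaller rises at D2, and LOC9267997 and LOC4350213 pass it at D1. LOC4325401 is lowest at D2 there, and LOC4339736 stays between 9.7 and 13.5.

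Further probe sets of the member genes gave mixed values. The array has 17 probe sets outside the set for 11 of the 41 genes. In ZS97, 7 of the 17 were above 0.4 at both D2 and D3, of which 1 was above 1 at both, and 6 lay within 0.4 at both stages. A single probe set therefore does not settle the course of its gene.

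Most lists of stress genes held no member. Of 28 lists of rice genes by function, 4 held a member: the jasmonate list 1, the heat shock list 1, the list of beta-glucosidases and glycosyltransferases 2 and the transport list 1. These 5 were 8.06% of the members, whereas the lists held 1.78% of all probe sets. No member was found in the lists of abscisic acid genes (87 probe sets), LEA proteins and dehydrins (9), NAC factors (13), WRKY factors (7) or sugar transport and carbohydrate metabolism (71). Since only 62 of the 57381 probe sets are members, a list of such a size would mostly hold none. The empty lists therefore give no result on these families. In the LEA list the median ZS97 change was already 3.32 at D1. With 5.13% of the probe sets of the array bearing a gene name, members of these families without a name would be missed.

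The arrays were similar in their overall signal, with a trimmed mean of 228 to 245 and a replicate correlation of 0.997 to 0.998. The labelled tissue was checked with leaf markers, 14 probe sets of 6 of the 7 genes listed, whose summed intensity was 104713, 81929, 53291 and 44976 at D0 to D3 in ZS97 and 101853, 70726, 67779 and 53788 in IRAT109. Their sum fell from D1 to D2 in ZS97, the step at which the members rose there, and changed less over this step in IRAT109. The part of this shift in the members' changes was not tested. Markers of young panicle summed to between 91.1 and 497 over the arrays and those of root to between 172 and 770, against 44967 to 107064 for leaf. The phloem marker, a single gene, went from 503.7 at D0 to 552 at D3 in ZS97 and from 562 to 903 in IRAT109, and the 2 pollen and anther markers from 275 to 381 and from 219 to 289. Their part in the members' changes was not tested either.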

How the data were processed

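Total RNA of 16 flag leaf samples was measured on Affymetrix Rice Genome Arrays. The deposited values are the intensity of each probe set, not log transformed. MAS5 is named in the labels and the robust multiarray average in the methods, so the summary method was not settled. All 57381 probe sets were kept, with no filter on dim signal, and arrays carry no read depth, so that 2 arrays a group limit the precision. Values were analysed as log2(intensity + 16), and changes are on that scale. The 62 members were selected by their ZS97 means, and ZS97 changes were not tested. The members and gene lists were chosen with earlier results of these data known. The list of beta-glucosidase and glycosyltransferase genes was narrowed after its values were seen, because its first search pattern also took glutelin genes. Probe sets of the glutelin genes GLUA-1 and GLUA-3, which are not members, still remain in it.

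IRAT109 contrasts came from limma 3.58.1 in R 4.3.3, with 8 group means over 16 arrays, 2-sided, with Benjamini-Hochberg adjustment over all probe sets (8 residual and 4.28 prior degrees of freedom, median residual SD 0.083). ± is the standard error of the fit. In a test on simulated data of the D3 contrast over 57381 probe sets, 49 of 50 changes of 1.2 and 50 of 50 of 1.5 were recovered.

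Members were named where a gene name beyond a locus number was at hand, by list, or by closeness to a bound. The other members given by locus number were chosen after their values were seen. They were taken by size of their ZS97 change, by large or low IRAT109 changes, or as examples of a course. Genes came from the platform annotation and RefSeq tables. Alternatives were the constant, quantile normalization, a dim filter, IRAT109 arrays alone, a replicate block, an intensity trend, no fold threshold, rank products (100 permutations), other bounds and leaving out each array.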

Additional observations from a re-analysis of the deposited data

Results flagged for a closer look

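At D2, 21 of the 62 members had both ZS97 arrays above both ZS97 D0 arrays while both IRAT109 arrays lay below both IRAT109 D0 arrays, and at D3 this held for 11. These were 33.9% and 17.7% of the members. Of all probe sets, 28.2% and 27.3% had both IRAT109 arrays below D0 at D2 and D3, and 15.8% and 13.2% of those with both ZS97 arrays above D0 did. The ZS97 side was fixed by the selection, and the difference between the genotypes was not tested. Of these, 6 were called lower in IRAT109 at D2. The IRAT109 change there was −1.27 for a probe set with no gene assigned, −1.16 for LOC9266317, −1.05 for 1 probe set of LOC4349363, −1.10 and −1.18 for the 2 BGLU16 probe sets, and −1.18 for LOC4325401. At D3 LOC9266317 was called, at −1.09.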

How the results depend on the processing

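The set itself depends on its bounds. It held 107 probe sets with a D1 bound of 0.5, and 135 and 34 with bounds of 0.8 and 1.2 at D2 and D3. Leaving out 1 ZS97 array at a time gave 57 to 78 probe sets, of which 45 to 61 were among the 62. Constants of 1 and 64 gave 77 and 56, with 48 and 30 shared.

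For the fixed members in IRAT109, dropping the fold threshold gave 21, 21 and 38 higher and 16, 16 and 8 lower at D1, D2 and D3, with 6 rising from D1 to D2 and 38 from D2 to D3. The calls move with the constant, the lower ones most. A constant of 1 gave 4 lower at D1, 2 at D3 and 2 rising from D1 to D2, and a constant of 64 gave 0 lower at D1, D2 and D3 and 4 rising from D2 to D3, beside 4, 6 and 12 higher at D1, D2 and D3. At a constant of 64 the threshold of 2-fold asks for a larger rise or fall of a dim probe set. Rank products called 0 lower at D3, where limma called 1 and 8 passed an adjusted p of 0.05 alone.

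Leaving out 1 IRAT109 array at a time gave 6 to 7, 7 to 7 and 16 to 18 higher at D1, D2 and D3, 1 to 3, 5 to 7 and 0 to 1 lower, 1 to 1 rising from D1 to D2 and 6 to 10 from D2 to D3. The 1 lower at D1 came without IRAT109 D0 replicate 1 or D1 replicate 2, and the 0 at D3 without D3 replicate 2. The replicate block gave 6, 7 and 18 higher and 2, 6 and 1 lower, as without it. The replicate numbers were not taken to pair the samples. Of 28 group pairs, 1 deviated together with a correlation over 0.1 and 2 deviated oppositely with one below −0.1. These correlations ranged from −0.32 to 0.16, with a median of 0.004. For the members named with their values, 1167 of the 1200 alternative values kept their call, 26 lost it, 7 gained it and no called value changed sign. The sign turned for 6 values that were not called, of 3 members, none larger than 0.0552 as reported.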
